A study of Mus musculus with 13 samples.

Results

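The CTCF peak list of del(8-13)rXII limbs held 35091 peaks on the autosomes after summits of the same region were joined, and 1362 of them (3.88%) overlapped no peak in any of the other 6 CTCF lists of the series. These 1362 unshared peaks were chosen by measured values, namely by where the other lists had a peak, so their absence from those lists is a description and not a result. The other 33729 peaks of the same list, the shared peaks, are the comparison. Merged over all 7 CTCF lists, the series held 92568 autosomal regions.

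The unshared peaks came from homozygous delHoxd(8-13)rXII embryos of strain B6CBAF1 at stage E12.5, here called del(8-13)rXII. Whole forelimbs of 4 embryos were pooled and processed by ChIPmentation, in which a Tn5 transposase inserts the sequencing adapters while the chromatin is still on the antibody beads, followed by 14 PCR cycles. The other CTCF lists came from ordinary ChIP-seq at the same stage. The mutant ones were of B6CBAF1 forelimbs and hindlimbs, homozygous for delHoxd(8-13)d11lac, delHoxd(1-13)d9lac or delHoxd(attP-rel5)d9lac. The wild-type ones were of CD1 distal forelimb, CD1 proximal forelimb, and B6CBAF1 forelimbs and hindlimbs taken whole. RAD21 lists were used from del(8-13)rXII forelimbs and hindlimbs, from wild-type B6CBAF1 forelimbs and hindlimbs, and from wild-type CD1 distal forelimb, which also gave an SMC1 list. All reads were 50 bases from 1 end. Every group had 1 library, so no p-value is given, and intervals are Wilson 95% intervals that cover counting error only. Genotype, tissue and assay all differ between the del(8-13)rXII CTCF library and the others, and their parts in the results cannot be told apart.

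CTCF is a zinc-finger protein that reads a long oriented DNA motif. Cohesin, the ring complex that contains RAD21 and SMC1, forms chromatin loops and tends to stop where CTCF is bound, so a typical CTCF peak carries the motif and often a cohesin peak. Short tandem repeats are another class of sequence that recurs in peak lists. Vertebrate telomeres are arrays of TTAGGG, and shorter arrays of the same unit lie inside chromosomes. CA dinucleotide arrays, read as TG on the other strand, are the most familiar microsatellite of mammalian genomes.

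The label of these regions as CTCF peaks was checked against the motif, learned as a 19-bp matrix from the 2000 strongest wild-type whole-limb CTCF summits. That list is among those the rule used, so a shared peak could overlap a training peak and an unshared peak could not. A match within 50 bp of the summit was found in 76 of the 1362 unshared peaks, or 5.58% (4.48 to 6.93%), against 46.7% (15754 of 33729) of the shared peaks and 45.1% of the whole list. By construction 5% of control windows free of CTCF peaks pass the same score. Windows 2 kb to either side of the unshared summits passed in 4.04% and 3.52%. The motif therefore goes against the label for most of these regions, and they are called unshared peaks and not CTCF sites.

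What most of the strong unshared peaks shared was a repeat at the summit, and a few sequences show the kinds other than telomere-type arrays. Each one is 101 bases of the GRCm38.p6 plus strand centred on the strongest summit.

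The first 4 come from the most common class, sequence rich in CA or TG, and stand at its median strength. Many peaks tie there, and these were taken in chromosome order. They lie at chr1:10101032-10101132 in an intron of Cspp1, and between genes at chr1:42021322-42021422 (nearest start Pou3f3), chr1:64996874-64996974 (nearest start Akr1cl) and chr1:147492127-147492227 (nearest start Brinp3). Capitals mark GTGTAT, which is ATACAC on the other strand. Akr1cl and Brinp3 show TG arrays broken often by TA steps, Pou3f3 an array that is nearly pure TG, and Cspp1 a longer unit with no GTGTAT.
Cspp1: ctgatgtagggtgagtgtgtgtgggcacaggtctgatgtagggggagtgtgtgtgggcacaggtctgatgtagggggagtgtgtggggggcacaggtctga
Pou3f3: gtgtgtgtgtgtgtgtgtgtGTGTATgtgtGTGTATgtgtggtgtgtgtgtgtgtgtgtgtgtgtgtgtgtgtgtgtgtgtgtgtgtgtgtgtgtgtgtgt
Akr1cl: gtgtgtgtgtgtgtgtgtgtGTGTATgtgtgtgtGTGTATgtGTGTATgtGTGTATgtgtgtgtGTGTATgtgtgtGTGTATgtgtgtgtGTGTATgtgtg
Brinp3: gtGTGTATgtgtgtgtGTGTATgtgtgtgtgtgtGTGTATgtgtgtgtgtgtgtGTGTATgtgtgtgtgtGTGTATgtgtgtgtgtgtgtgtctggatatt

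A pair of the 3 strongest members of that class varied too. Raet1d, between genes at chr10:22448364-22448464, has CA inside a longer unit, while Paip1, at chr13:119428252-119428352 just before the start of the gene, is a TG array with TA and other steps. Capitals mark CA in the Raet1d sequence and TG in the Paip1 sequence.
Raet1d: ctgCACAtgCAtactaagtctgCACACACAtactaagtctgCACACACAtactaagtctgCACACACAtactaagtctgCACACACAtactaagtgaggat
Paip1: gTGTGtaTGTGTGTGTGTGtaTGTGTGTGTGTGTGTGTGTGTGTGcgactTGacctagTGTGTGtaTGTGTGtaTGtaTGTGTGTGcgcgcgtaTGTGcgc

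For contrast, the strongest unshared peak with a CTCF motif, no repeat and no peak of another list within 1 kb lies at chr8:116604938-116605038 in an intron of Cdyl2, with the start of Dynlrb2 as the nearest. Its motif scored 17.99 bits, and capitals mark it.
Dynlrb2: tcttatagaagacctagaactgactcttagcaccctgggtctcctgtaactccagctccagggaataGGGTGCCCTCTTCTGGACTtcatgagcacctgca

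The unshared peaks were weak and narrow. Peak strength, as the authors' caller gave it, had a median −log10 q of 2.54 in the unshared peaks (range 1.30 to 49.0) and of 7.46 in the shared peaks. Fold enrichment over local background had a median of 4.13 in the unshared peaks and 6.17 in the shared ones. The median width was 99 bp in the unshared peaks, with quartiles of 97 and 131 bp and a maximum of 455 bp, against 311 bp in the shared peaks. The narrowest peak the list holds is 97 bp, and 648 unshared peaks (47.6%) had exactly that width, against 5.41% of the shared peaks. In the other 6 CTCF lists the narrowest peak ranged from 185 to 224 bp.

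Almost every unshared peak had a single summit. Several summits were called in 4 of 1362 unshared peaks (0.294%, 0.114 to 0.753%), against 25.9% of the shared peaks and 24.9% of the whole list. Of the 4, Usp42 had 3 summits and Galnt3, Plekha7 and Dnajb9 had 2 each. The sets were not matched for width, with medians of 99 bp in the unshared and 311 bp in the shared peaks. The summit difference was thus not separated from the width difference. The share of peaks with several summits was itself a property of this list, since it ranged from 0.722% to 1.64% in the other 6 CTCF lists. Among the peaks unique to each of those lists it ran from 0% to 1.43%, so single summits were not particular to the unshared peaks.

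**Figure D1:**
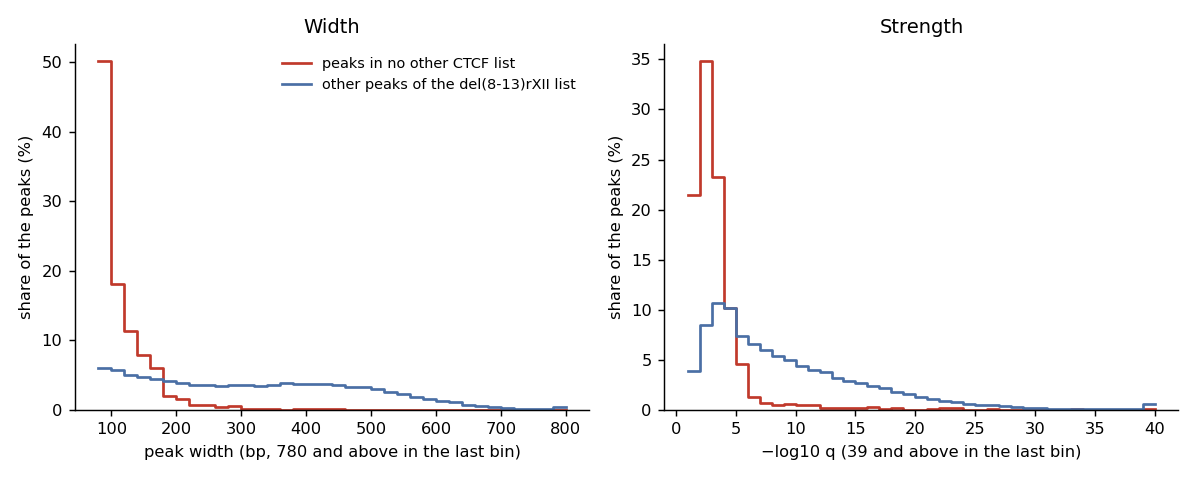
Widths (left, bins of 20 bp) and −log10 q (right, bins of 1) of the 1362 unshared peaks (red) and the 33729 shared peaks (blue) of the del(8-13)rXII CTCF list, as a share of each set. The unshared peaks pile up at the smallest width, 97 bp, and at a −log10 q near the median of 2.54, while the shared peaks spread to a median of 311 bp and 7.46.

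Repeats marked the unshared peaks at every strength. A repeat of any of 3 kinds within 50 bp of the summit was found in 719 unshared peaks (52.8%, 50.1 to 55.4%), against 7.10% of the shared peaks and 8.87% of the whole list. The windows 2 kb to either side of the unshared summits held one in 9.91% and 9.62%. At a −log10 q of 4 to 6 a repeat lay under 56.5% of 200 unshared peaks and 7.78% of 5925 shared peaks. In the same range the CTCF motif was found in 6.50% of the unshared and 41.2% of the shared peaks. Peaks of equal width differed likewise. Among those of exactly 97 bp a repeat lay under 48.1% of the unshared and 9.86% of the shared peaks, and a motif under 4.94% and 32.9%.

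**Figure D2:**
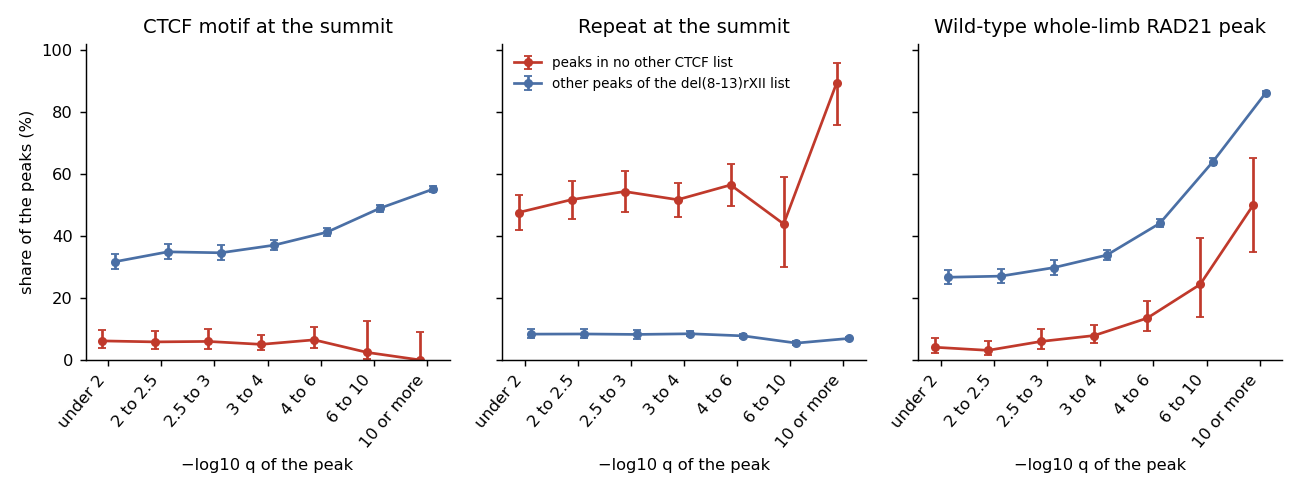
Share of peaks with a CTCF motif within 50 bp of the summit (left), with a repeat there (middle) and with an overlapping wild-type whole-limb RAD21 peak (right), by −log10 q, for the unshared peaks (red) and the shared peaks (blue) of the del(8-13)rXII CTCF list. Bars are Wilson 95% intervals; the motif share of the unshared peaks stays below that of the shared peaks in every bin, and their repeat share reaches 89.5% at a −log10 q of 10 or more.

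The strongest unshared peaks were mostly telomere-type arrays. Of the 38 unshared peaks with a −log10 q of at least 10, 25 had at least 3 successive copies of TTAGGG on either strand, 7 were rich in CA or TG, and 2 lay on another tandem repeat. None of the 38 had a CTCF motif, which allows a share of up to 9.18%, against 55.1% of the 12311 shared peaks of that strength. Telomere-type repeats lay under 60 of all unshared peaks (4.41%), against 174 of the shared peaks (0.516%) and 0.667% of the whole list. No window 2 kb to either side held one. The third class, other tandem repeats, lay under 53 unshared peaks (3.89%), against 1.30% of the shared peaks and 1.4% of the whole list.

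The telomere-type unshared peaks had a median −log10 q of 7.71 and a median fold enrichment of 6.76, against 49.2 and 19.7 for the telomere-type shared peaks. The strongest, in an intron of A1cf, which encodes an RNA-binding cofactor of messenger RNA editing, had a −log10 q of 33.8 and a fold enrichment of 16.1. The peak nearest to the start of Map3k7, a kinase of TGF-beta and inflammatory signalling, had 26.7 and 15.2 but lay 783151 bp away. The peak in Frmd4a, a scaffold protein of cell polarity, had 23.8 and 13.4. One of these peaks, at a −log10 q of 17.2, lay between genes 95075 bp before the start of Gli3, the Hedgehog-pathway transcription factor that restrains digit number. Introns of Csmd1, a transmembrane protein with complement-control modules (21.1), and Rttn, a centriole protein (18.9), held telomere-type peaks as well. Of the strongest peaks far from a promoter, those nearest to Olfr221, an olfactory receptor (22.5), and Gata6, a zinc-finger transcription factor (22.3), lay on other tandem repeats. In each case the gene is the nearest protein-coding start and nothing more.

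The number of repeat copies separated the lists. The autosomes of the reference hold 396 loci with at least 3 successive copies of TTAGGG, and 252 of them had a del(8-13)rXII CTCF peak. Of 26 loci with 5 copies, 22 (84.6%) had a peak in the del(8-13)rXII CTCF list, against 3 to 8 loci (11.5 to 30.8%) in each of the other 6 CTCF lists. Of 128 loci with 3 copies, 17 (13.3%) had one in the del(8-13)rXII CTCF list, against 3 to 6 (2.34 to 4.69%) in the others. With 11 or more copies the lists held almost the same counts, with 75 of 75 loci in the del(8-13)rXII CTCF list and 74 or 75 in each of the others. The 69 loci with a peak in the del(8-13)rXII CTCF list alone had a median of 5 copies (3 to 8), and those with a peak in other CTCF lists as well had a median of 10. Telomere-type arrays were chosen after the data were seen, so part of the excess in this list follows from the rule.

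In the whole-limb RAD21 lists del(8-13)rXII did not lie above wild type in any of the 6 copy classes. At 5 copies 10 of the 26 loci (38.5%) had a RAD21 peak in del(8-13)rXII whole limbs, against 12 (46.2%) in wild-type whole limbs. The del(8-13)rXII RAD21 list is much the smaller one, as given below, so these shares are not a comparison of genotypes. At 11 or more copies all 75 loci had a peak in each of the 3 RAD21 lists and in the SMC1 list. Long telomere-type arrays thus had peaks with all 3 antibodies.

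CA- or TG-rich sequence was the most common repeat under the unshared peaks. At least 15 CA, or 15 TG, in the 101 bases around the summit were found in 606 unshared peaks (44.5%), against 5.28% of the shared peaks and 6.81% of the whole list. The 2-kb windows on either side held such sequence in 5.51% and 5.29%. In the peaks unique to each of the other 6 CTCF lists the share ranged from 3.27% (wild-type proximal forelimb, 385 of 11765) to 8.21% (del(1-13)d9lac, 151 of 1839). These peaks were weak, with a median −log10 q of 2.54 and a highest of 16.4.

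**Figure D3:**
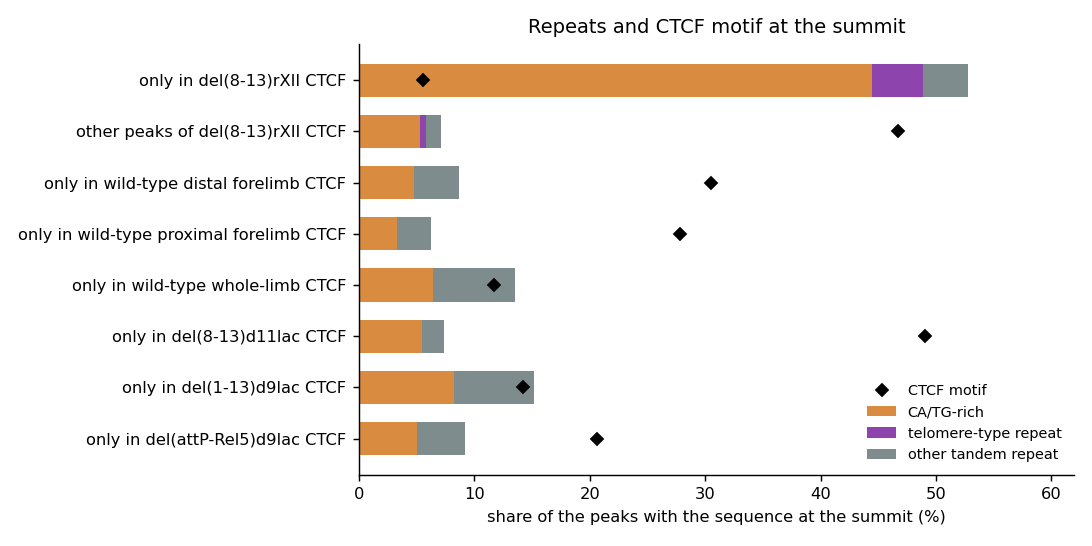
Share of peaks with a repeat at the summit, by class (stacked bars), and with a CTCF motif (black diamonds), for the unshared and the shared peaks of the del(8-13)rXII CTCF list and for the peaks unique to each of the other 6 CTCF lists. The unshared del(8-13)rXII peaks have the largest repeat share of the 8 sets drawn, 52.8%, and the smallest motif share, 5.58%.

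The CA-rich unshared peaks often had TA steps among the CA or TG. The letters ATACAC, searched on both strands, were present in 425 of the 606 (70.1%), against 21.5% of the 1782 CA-rich shared peaks. In the CA-rich windows 2 kb from the unshared summits they were present in 32 of 147 (21.8%), and in the CA-rich peaks unique to other CTCF lists in 9.61 to 18.8%. Over all unshared peaks 35.9% held ATACAC, against 5.47% of the shared peaks, 6.65% of the whole list and 6.17% and 4.77% of the windows on either side. Runs of CA, TG and TA steps covered 44.9% and 46.0% of the CA-rich unshared peaks at 100 bp to either side of the summit, against 7.24% and 6.29% of the CA-rich shared peaks. At the summit itself they covered 60.7% and 16.8%, so most CA-rich shared peaks had no run there. Uninterrupted CA or TG runs were not longer. Those with a peak in del(8-13)rXII alone had a median of 17 copies, against 19 with a peak in other CTCF lists too and 18 with no del(8-13)rXII peak.

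**Figure D4:**
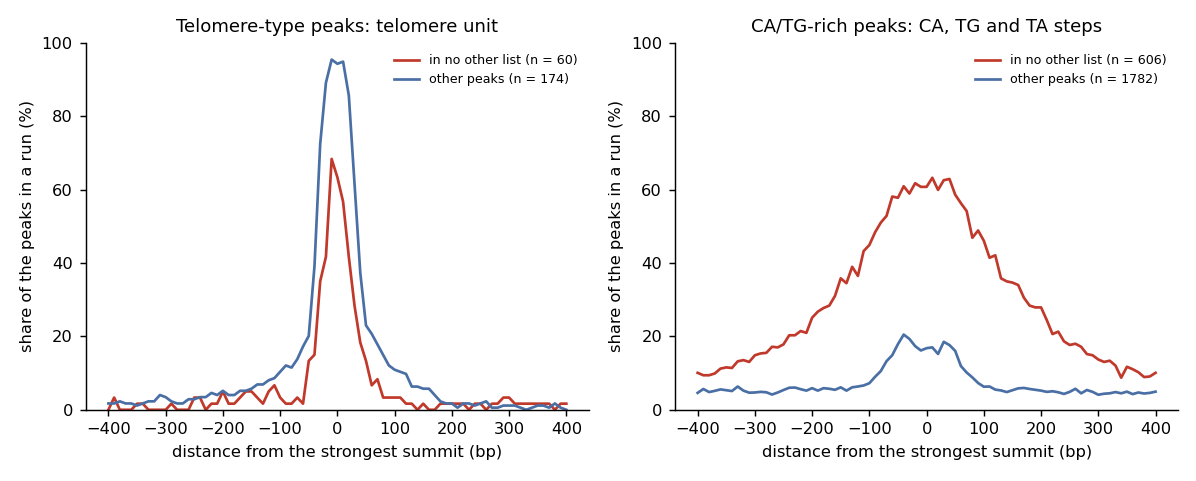
Share of peaks in which the base at a given distance from the strongest summit (bp) lies in a run of at least 2 TTAGGG units on either strand, for telomere-type peaks (left), or in a run of at least 3 CA or TA steps or 3 TG or TA steps, for CA/TG-rich peaks (right). At the summit the run covers 63.3% of the telomere-type unshared peaks and 94.3% of the telomere-type shared peaks, and 60.7% of the CA-rich unshared peaks and 16.8% of the CA-rich shared peaks; the classes were defined on the 50 bp to either side of the summit.

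By the share of loci with a peak, pure CA arrays did not set the list apart. Of the 241957 autosomal runs of at least 10 uninterrupted CA or TG, 0.661% had a peak in the del(8-13)rXII CTCF list, against 0.434 to 1.05% in the other 6 CTCF lists. The del(8-13)rXII CTCF list is the smallest, with 35091 autosomal peaks against 40424 to 70418. Shares of loci take no account of list size, so a share within the range of larger lists does not show that the list is alike. Large clusters of ATACAC did set it apart. Of 3743 clusters of at least 9 copies spaced by up to 30 bp, 158 (4.22%) had a del(8-13)rXII CTCF peak, against 5 to 33 (0.134 to 0.882%) in each of the other 6. ATACAC was chosen after the data were seen, and the unshared peaks are those the other lists lack. Part of this excess therefore follows from the rule. Of the 946 clusters of at least 2 copies with a del(8-13)rXII CTCF peak, 486 had a peak in no other CTCF list. At clusters of 2 copies the del(8-13)rXII CTCF list, at 0.641%, lay within the range of the others, 0.426 to 1.01%. The same large clusters had a RAD21 peak in 10 cases (0.267%) in del(8-13)rXII whole limbs and in 72 (1.92%) in wild-type whole limbs. The RAD21 lists differ in size, as given below, so these shares are not a comparison of genotypes.

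**Figure D5:**
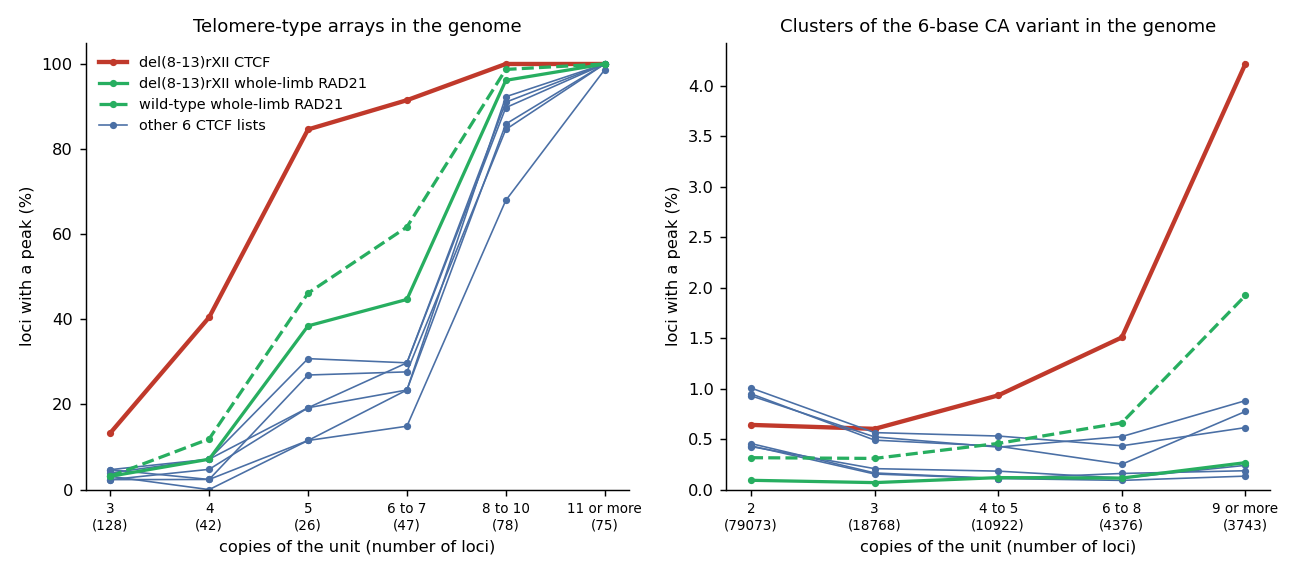
Share of repeat loci of the autosomes with a peak, by number of unit copies, for telomere-type arrays (left) and for clusters of ATACAC (right; the vertical scale ends below 5%). The del(8-13)rXII CTCF list (red) lies above the other 6 CTCF lists (thin blue) at 3 to 10 telomere copies and from 3 ATACAC copies up. Green lines are the whole-limb RAD21 lists of del(8-13)rXII (solid) and wild type (dashed). Both kinds of locus were chosen after the data were seen.

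Cohesin was rarer at the unshared than at the shared peaks, but not as rare as at the peaks unique to other CTCF lists. The RAD21 list of del(8-13)rXII whole limbs overlapped 31 of them (2.28%, 1.61 to 3.21%), against 41.9% of the shared peaks and 40.3% of the whole list. The RAD21 list of wild-type whole limbs overlapped 114 (8.37%, 7.01 to 9.96%), against 60.9% of the shared peaks and 58.9% of the whole list. The 2 lists differ in size, with 15549 autosomal peaks in del(8-13)rXII and 32465 in wild type, so their shares are not a comparison of genotypes. In the peaks unique to each of the other 6 CTCF lists the del(8-13)rXII RAD21 share was 0.218 to 0.628%, and the wild-type whole-limb RAD21 share 2.85 to 4.96%. In wild-type distal forelimb RAD21 overlapped 7 unshared peaks (0.514%) and SMC1, another ring subunit, overlapped 18 (1.32%), against 44.2% and 58.5% of the shared peaks and 42.5% and 56.2% of the whole list. At a −log10 q of 4 to 6 wild-type whole-limb RAD21 lay over 13.5% of the unshared and 44.1% of the shared peaks.

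Where cohesin was present, it lay mostly on repeats. Wild-type whole-limb RAD21 overlapped 83 of the 719 unshared peaks on a repeat (11.5%), against 30 of the 628 with none (4.78%). For del(8-13)rXII RAD21 the counts were 27 of 719 (3.76%) and 4 of 628 (0.637%). The telomere-type class had the highest shares, 9 of 60 with del(8-13)rXII RAD21 and 16 of 60 with wild-type whole-limb RAD21. A motif and cohesin almost never met: of the 76 unshared peaks with a CTCF motif 1 overlapped a wild-type whole-limb RAD21 peak, against 63.7% of the 15754 shared peaks with a motif.

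Of the 31 unshared peaks with del(8-13)rXII RAD21, 27 also overlapped a wild-type whole-limb RAD21 peak. The Map3k7 array had a RAD21 −log10 q of 14.2 in del(8-13)rXII and 2.20 in wild type, and the Frmd4a array 3.01 and 3.96. The array 105285 bp from the start of Trim33, a chromatin-associated ubiquitin ligase, had 7.56 in del(8-13)rXII and 13.4 in wild type. The Raet1d array shown above, near a gene for a ligand of the immune receptor NKG2D, had 6.18 in del(8-13)rXII and 30.3 in wild type. These strengths depend on the depth of each library, which is unknown, and are not compared between lists. The intergenic peak 148756 bp from the start of Epm2a, which encodes the glycogen phosphatase laforin, had no repeat and no motif but was strong in CTCF (−log10 q 23.3) and had RAD21 at 8.31 in del(8-13)rXII and 5.38 in wild type.

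In 4 unshared peaks (0.294%) RAD21 was called in del(8-13)rXII and in no wild-type RAD21 or SMC1 list. The same count was not made for the shared peaks, so the share cannot be called high or low. All 4 lay on repeats. Those nearest to Ints13, a subunit of the Integrator complex that processes small nuclear RNAs, to Olfm1, a secreted neural glycoprotein, and to Tacr2, a tachykinin receptor, were telomere-type arrays, with RAD21 −log10 q of 8.48, 1.89 and 5.67. The fourth, near Iffo2, was CA-rich with a RAD21 −log10 q of 3.60. The Olfm1 value lay close to the lowest of that RAD21 list, 1.31, and a missing wild-type call does not show that RAD21 was absent there.

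Promoters were somewhat rarer among the unshared than among the shared peaks, though not in comparison with the peaks unique to other CTCF lists. A protein-coding transcription start lay within 1 kb of the summit in 85 unshared peaks (6.24%, 5.08 to 7.65%), against 9.69% of the shared peaks and 9.55% of the whole list. In the peaks unique to each of the other 6 CTCF lists the share ran from 3.24% (wild-type proximal forelimb) to 9.42% (del(8-13)d11lac). The share differed with the repeats. Among peaks on none of the 3 repeat classes a promoter was present in 11.04% of the unshared and 10.06% of the shared peaks, and among unshared peaks on a repeat in 14 of 719 (1.95%). Promoter peaks that were unshared lay close to peaks of other lists more often than all unshared peaks did. Of the 85, 43 (50.6%) had one within 1 kb, against 299 (22.0%) of all 1362 unshared peaks. They carried a motif in 7 of 85 cases (8.24%) and wild-type whole-limb RAD21 in 4 (4.71%), against 42.0% and 56.7% of the 3267 promoter peaks that were shared.

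The strongest unshared promoter peaks belonged to genes of several kinds. The Paip1 peak, 299 bp before the start of a gene for a translation factor that binds the poly(A)-binding protein, had a −log10 q of 12.8 and lay on a TG array. The Usp42 peak, 225 bp before the start of a gene for a deubiquitinating enzyme, had 11.03, and at 425 bp was the second widest of the unshared peaks at named genes, after an intronic peak in Plekha7 of 455 bp. The Hes3 peak (10.2), in the gene of a basic helix-loop-helix repressor, was CA-rich and overlapped RAD21 at 2.91 in del(8-13)rXII and 21.2 in wild-type whole limbs. Smarcc2, a core subunit of the BAF chromatin remodeller, had 2 unshared peaks around its start, with −log10 q of 8.37 and 6.64, no repeat and no motif.

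Of the remaining promoter peaks at named genes, Mfap2, a microfibril protein, lay on a tandem repeat (7.76). Fgfrl1, an FGF receptor without a kinase domain (7.41), Gh, growth hormone (6.69), Carm1, an arginine methyltransferase (5.84), and Rcor3, a corepressor (5.68), had no repeat. Each of these 4 lay within 100 bp of a peak of another list, at gaps of 21, 20, 87 and 8 bp. Gh and Carm1 had a CTCF motif, with scores of 12.4 and 3.49 bits against a threshold of 2.85.

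No gene of the lists examined had an unshared peak within 1 kb of its start. The lists were the HoxD locus (16 genes), the other Hox clusters (31), limb patterning (37), cartilage, limb mesenchyme, muscle, endothelium, blood, neural and surface ectoderm markers, housekeeping genes, immediate early and stress genes, splicing factors, cell cycle genes, the cohesin and CTCF machinery and both sets of ribosomal proteins. Over all 20780 autosomal protein-coding genes 81 (0.390%) had one, so a count of 0 in lists of this size is close to what the background gives. The HoxD list is a special case, because the embryos were homozygous for the delHoxd(8-13)rXII deletion. Genes inside the deleted interval could hold no peak, so their part of the 0 was fixed in advance. Shared peaks lay at 15.04% of all genes. By list their share ran from 0%, as at the HoxD locus and the limb mesenchyme markers, to 53.8% (7 of 13) at the cohesin and CTCF machinery. The lists are small, and these shares do not concern the unshared peaks. Within 1 Mb of the HoxD cluster there were 2 unshared peaks. One lay 252116 bp from the start of Atp5g3, a subunit of mitochondrial ATP synthase, with a −log10 q of 2.43 and no RAD21. The other lay 43321 bp from the start of Nfe2l2, the transcription factor of the oxidative stress response, with a −log10 q of 2.91, and overlapped RAD21 at 15.5 in del(8-13)rXII and 15.9 in wild-type whole limbs. It was 153 bp from a peak of another CTCF list.

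By position the unshared peaks lay mostly outside exons. Introns held 653 (47.9%) and intergenic sequence 638 (46.8%), against 46.1% and 44.3% of the shared peaks. Coding exons held 17 (1.25%) and UTRs 20 (1.47%), against 2.46% and 3.43% of the shared peaks. A distance of over 10 kb to any protein-coding start was found for 77.0% of the unshared and 65.1% of the shared peaks. Repeat-masked bases, as the reference marks them, made up 55.0% of the summit windows of the unshared peaks and 18.8% of those of the shared peaks.

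The unshared peaks on none of the repeat classes had the motif most often of the classes, and wild-type whole-limb RAD21 least often (30 of 628, 4.78%). Away from chromosome starts, 67 of them (10.7%, 8.49 to 13.3%) had a motif, against 47.6% of the shared peaks of the same kind. A peak of another CTCF list lay within 1 kb of 192 of the 628, against 79 of the 606 CA-rich and 5 of the 60 telomere-type unshared peaks. With such a neighbour the motif was found in 17 of 192 (8.85%), and without one in 50 of 436 (11.5%). Besides the Dynlrb2 peak, a strong match of 21.8 bits lay under a peak of −log10 q 4.53 that was 218596 bp from the start of Zc3h12c and 18585 bp from the nearest peak of another list. The strongest of all unshared peaks, with a −log10 q of 49.0 and a fold enrichment of 19.8, lay 940324 bp from the start of Nxph1, had none of the repeats and no motif, and overlapped a weak wild-type whole-limb RAD21 peak (2.89). It was also 1 of the 7 unshared peaks with RAD21 in wild-type distal forelimb. Its origin was not tested.

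The edge of the rule did not fall at a break in the values. At most 10 bp separated 35 unshared peaks from a peak of another list, and these had a median −log10 q of 3.07 (1.35 to 5.68). On the other side 40 shared peaks were covered by at most 10 bp in any other list, with a median of 3.00 (1.31 to 5.65). The median gap to the nearest peak of another list was 7759 bp over all unshared peaks, and 220 (16.2%) had one within 200 bp.

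The motif and repeat shares changed step by step with the number of other CTCF lists that held the peak. In 0, 1, 2, 3, 4, 5 and 6 other lists the motif share was 5.58, 15.5, 19.3, 29.2, 35.6, 41.0 and 49.1%. The repeat share over the same steps was 52.8, 26.0, 23.0, 14.3, 13.1, 10.5 and 5.83%. The RAD21 and promoter shares had no such order. Over the same steps del(8-13)rXII RAD21 overlapped 2.28, 6.37, 12.6, 6.88, 7.68, 10.9 and 48.0%, wild-type whole-limb RAD21 overlapped 8.37, 18.6, 21.04, 15.4, 17.9, 24.9 and 68.4%, and a promoter was present in 6.24, 10.5, 8.91, 8.52, 7.16, 7.58 and 10.01%. Strength and width differed over these steps too. The median −log10 q was 2.54, 3.07, 3.27, 3.07, 3.28 and 3.51 for 0 to 5 lists, and 8.77 for the 28433 peaks found in all 6. The median width was 99, 110, 116.5, 119, 128, 145 and 353 bp. The motif and repeat shares were not separated from strength and width in these steps. Of the 361 peaks held by exactly 1 other list, 178 (49.3%) were shared with del(8-13)d11lac and 13 (3.60%) with wild-type whole limbs. The other mutant lists were near wild-type whole limbs, with 7 (1.94%) for del(1-13)d9lac and 19 (5.26%) for del(attP-Rel5)d9lac. Wild-type proximal forelimb, the largest list with 70418 autosomal peaks, shared 77 of the 361, and wild-type distal forelimb, with 66758, shared 67. The del(8-13)d11lac list had 59369 peaks and the wild-type whole-limb list 42202. The del(8-13)d11lac list also had the widest peaks of the CTCF lists, with a median of 420 bp against 316 bp in wild-type whole limbs. Its median −log10 q was the highest as well, 31.0 against 17.3. Why it shared the most of the 361 was not tested.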

How the data were processed

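Peak lists of 11 of the 13 samples were used; the 2 H3K27ac samples were not analysed here. Per the submitters' processing notes, cutadapt, Bowtie2 and MACS2 were used with build mm10; versions are not given in the sources used here. Each list holds positions and summits as deposited. The authors' score is 10 times the −log10 q as a whole number, the fold enrichment is the authors' ratio to local background, and the −log10 p and −log10 q were computed by the authors. No file gives read counts, so depth is unknown. Per the labels the del(8-13)rXII RAD21 library was sequenced in 2 runs.

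Rows of the same region were joined and the strongest summit kept, on autosomes. Overlap means at least 1 bp. Genes are GENCODE M21 on GRCm38.p6, with 1-based coordinates. The motif matrix was learned de novo with numpy, and the threshold of 2.85 bits was passed by 5% of 68378 windows 2 kb from the summits that overlap no CTCF peak. Classes were assigned in this order to the 101 bases at the summit: at least 3 successive TTAGGG, at least 15 CA or TG, another tandem repeat (18 of 20 successive bases equal to the base up to 50 further on), within 200 kb of the first sequenced base of a chromosome, none. Steps were tested on simulated data.

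The unshared peaks and the gene lists were chosen with earlier results of these data known. The repeat classes, ATACAC and the comparison of peaks of 97 bp were chosen after the data were seen, as were the Cspp1, Pou3f3, Akr1cl, Brinp3, Dynlrb2 and Zc3h12c examples. Other named peaks followed a rule: the 10 strongest at promoters and far from them, the 5 widest, those with most summits, the 5 strongest with RAD21 in both whole-limb lists or in del(8-13)rXII alone, and all within 1 Mb of HoxD, passing over predicted genes. The closing section gives the alternatives. Python 3.11 packages were numpy, pandas, scipy and pysam. The sequences of the telomere-type arrays and of 1 strong CA-rich peak are not reported here.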

Additional observations from a re-analysis of the deposited data

How the results depend on the processing

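No paired analysis was possible because each group has 1 library and no test was made. Leaving out 1 of the other 6 CTCF lists at a time gave 1369 to 1540 unshared peaks, a promoter share of 6.23 to 6.72%, a wild-type whole-limb RAD21 share of 8.18 to 9.52%, a del(8-13)rXII RAD21 share of 2.21 to 2.97%, a motif share of 5.62 to 6.82%, a repeat share of 48.5 to 52.9%, several summits in 0.290 to 0.350% and a median width of 99 to 101 bp. Where a peak was removed only if a summit of another list lay within 200 bp, there were 2250 peaks, with a promoter in 8.44%, wild-type RAD21 in 16.6%, del(8-13)rXII RAD21 in 6.93%, several summits in 3.51%, a repeat in 37.7% and a median width of 111 bp. With removal only at 50% coverage there were 1699 peaks, the repeat share was 45.7% and the median width 104 bp. Removing also peaks within 1 kb of another list's peak left 1062, a promoter share of 3.95% and a repeat share of 58.7%. Of the 38 peaks with a −log10 q of at least 10, 7.89% were at promoters, 50.0% had wild-type RAD21, 31.6% del(8-13)rXII RAD21, 0% a motif, 89.5% a repeat and 5.26% several summits, at a median width of 168 bp. Counting promoters within 500 bp gave 4.41%, within 2.5 kb 9.84% and at genes of any type 9.32%. RAD21 within 500 bp gave 17.9% in wild type and 7.71% in del(8-13)rXII. A motif within 100 bp was found in 7.64% of the unshared and 72.9% of the shared peaks, and a threshold passed by 1% of control windows gave 3.01% and 39.3%. At least 20 CA or TG gave a repeat share of 45.0%. Among peaks on no repeat the unshared ones had a promoter in 11.04%, wild-type RAD21 in 4.82%, del(8-13)rXII RAD21 in 0.622% and a motif in 10.6%. In each of these settings the motif share and both RAD21 shares of the unshared peaks stayed below those of the shared peaks, and the repeat share above. The alternatives for repeats and for peaks on no repeat were chosen after seeing the data. With 1 library per group, the spread between libraries is not covered.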

Other observations

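Within 200 kb of the first sequenced base of a chromosome 15 unshared peaks had none of the repeats defined above, and 9 of them lay on chromosome 9 among predicted genes. They had low fold enrichment for their strength: the median fold was 2.09 (1.64 to 4.56) at a median −log10 q of 5.76, against a fold of 4.13 at a −log10 q of 2.54 in the unshared peaks on no repeat. One of the 15 overlapped a wild-type whole-limb RAD21 peak and none a del(8-13)rXII RAD21 peak.

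Across the autosomes the unshared peaks made up between 2.42% (chromosome 7) and 4.95% (chromosome 10) of the peaks of the list, and their density ran from 0.378 per Mb on chromosome 7 to 0.830 per Mb on chromosome 19. Telomere-type unshared peaks were present on every autosome, with 1 to 6 on each.

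The peaks unique to the other CTCF lists differed among themselves in the CTCF motif. It was found in 49.0% of the 3715 peaks unique to del(8-13)d11lac, 30.5% of the 8246 unique to wild-type distal forelimb, 27.8% of the 11765 unique to wild-type proximal forelimb, 20.6% of the 955 unique to del(attP-Rel5)d9lac, 14.2% of the 1839 unique to del(1-13)d9lac and 11.7% of the 2356 unique to wild-type whole limbs. None of these 6 sets held a telomere-type peak.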
